A study of Homo sapiens with 23 samples.

Results

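The 46 genes described here lie close together near the tip of the short arm of human chromosome 16, in band 16p13.3, and were selected on their values in the ovarian cancer line EFO-21, where most were higher in prexasertib-resistant than in parental cells. They run from LUC7L, which starts at position 238968 on GRCh37, to HAGH, which ends at 1877158, and were taken from a fixed list of symbols, all 46 of which were found among the 21658 genes of the table. The list has an inner stretch of 21 genes from MCRIP2 (from 686817) to UNKL (to 1464752), a left flank of 14 genes from LUC7L to METTL26 and a right flank of 11 genes from CLCN7 to HAGH. Because EFO-21 chose the list, its values are given as a description with no test, and tests were made only in the other 3 lines.

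Resistant derivatives of 4 established ovarian cancer lines, OV-90, Kuramochi, OVSAHO and EFO-21, were compared by RNA-seq with their parental cells. Prexasertib inhibits CHK1, a kinase that restrains DNA synthesis and division when replication is disturbed, and each resistant line was derived by stepwise escalation of the drug. Each of the 8 groups had 3 libraries, apart from parental OV-90 with 2, giving 23 in all. No other agent or engineered allele separates the groups. How many derivations stand behind the libraries of a resistant line, and the final drug concentrations of the ovarian lines are not given in the sources used here.

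Band 16p13.3 is one of the most gene-dense and GC-rich parts of the genome, with short genes packed head to head and often overlapping. Its genes do not form a pathway. They include AXIN1, a scaffold that holds beta-catenin in check, STUB1, a ubiquitin ligase that works with heat shock proteins, CHTF18, part of an alternative clamp loader at replication forks, TELO2, which stabilises the kinases ATM, ATR and mTOR, and SOX8, a developmental transcription factor that is switched on in few tissues.

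Of the 46 genes, 34 had a promoter window in the RefSeq table for GRCh38.p14, from 250 bases before to 50 bases after the start. The windows of 5 genes, each of 300 bases, are shown because the genes behind them behaved differently. WFIKKN1 was among the genes with the largest differences in EFO-21, MCRIP2 hardly differed there, CHTF18 was higher in EFO-21 and lower, past the adjusted p but under 2-fold, in resistant Kuramochi, and METRN and NME3 were higher in EFO-21 and lower in resistant OV-90. Capitals mark CpG dinucleotides, the sites at which human DNA is methylated. The windows are chr16:630735-631034, chr16:641578-641877, chr16:788370-788669 and chr16:714868-715167 on the plus strand and chr16:1771494-1771793 on the minus strand, each written 5′ to 3′ in the direction of the gene.
WFIKKN1: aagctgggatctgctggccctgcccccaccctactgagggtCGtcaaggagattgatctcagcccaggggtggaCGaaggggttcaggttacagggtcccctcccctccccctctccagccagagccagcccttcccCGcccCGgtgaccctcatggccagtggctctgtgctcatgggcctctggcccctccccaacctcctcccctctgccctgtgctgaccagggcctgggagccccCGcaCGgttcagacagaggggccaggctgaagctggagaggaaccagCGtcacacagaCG
MCRIP2: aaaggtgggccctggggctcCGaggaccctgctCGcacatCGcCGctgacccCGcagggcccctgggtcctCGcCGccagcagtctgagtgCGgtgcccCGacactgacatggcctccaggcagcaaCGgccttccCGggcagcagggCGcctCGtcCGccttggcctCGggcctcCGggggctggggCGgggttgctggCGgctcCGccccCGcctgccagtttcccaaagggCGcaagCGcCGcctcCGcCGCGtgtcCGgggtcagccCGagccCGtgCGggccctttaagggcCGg
CHTF18: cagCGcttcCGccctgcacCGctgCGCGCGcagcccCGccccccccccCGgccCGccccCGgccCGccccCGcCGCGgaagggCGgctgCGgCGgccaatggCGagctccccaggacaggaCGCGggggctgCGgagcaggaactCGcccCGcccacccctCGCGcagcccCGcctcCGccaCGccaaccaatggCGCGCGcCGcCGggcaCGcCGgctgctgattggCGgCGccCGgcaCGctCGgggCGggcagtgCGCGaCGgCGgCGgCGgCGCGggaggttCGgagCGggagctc
METRN: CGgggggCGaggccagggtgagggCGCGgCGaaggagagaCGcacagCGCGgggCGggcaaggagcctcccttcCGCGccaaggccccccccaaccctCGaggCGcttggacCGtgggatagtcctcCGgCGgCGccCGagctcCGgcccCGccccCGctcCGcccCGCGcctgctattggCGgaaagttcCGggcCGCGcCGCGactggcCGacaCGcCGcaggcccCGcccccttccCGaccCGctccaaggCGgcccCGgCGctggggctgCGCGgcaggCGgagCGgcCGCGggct
NME3: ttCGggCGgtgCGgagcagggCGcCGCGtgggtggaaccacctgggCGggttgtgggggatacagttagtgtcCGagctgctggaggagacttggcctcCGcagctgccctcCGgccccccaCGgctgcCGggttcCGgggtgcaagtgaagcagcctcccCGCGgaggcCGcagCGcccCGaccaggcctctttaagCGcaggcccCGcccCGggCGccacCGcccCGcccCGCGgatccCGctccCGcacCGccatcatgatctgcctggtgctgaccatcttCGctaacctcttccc

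WFIKKN1 had 8 CpG in its window, the fewest of the 34, while CHTF18 had 51, the most. MCRIP2 had 31, METRN 45 and NME3 30. Over the 34 windows the median was 39.5 CpG, against 14 over the 27305 promoter windows of the table, and the median GC content was 74.8% against 58.3%. The motif GGGCGG, searched on both strands, occurred in 30 of the 34 windows (88.2%) and in 44.6% of all windows. The motif TATAAA, also on both strands, occurred in 0 of the 34 and in 11.95% of all windows. A set of 3 pairs of genes that start back to back shared part of their windows, namely RPUSD1 with CHTF18 (262 bases), IFT140 with CRAMP1 (213 bases) and TSR3 with GNPTG (152 bases). In EFO-21 both genes of each pair were higher in resistant cells, by 0.55 and 1.35, 0.85 and 0.66, and 0.32 and 0.81 on the log2 scale.

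All values below are deposited log2 values per gene after quantile normalization, a difference is the resistant minus the parental mean on that scale, and levels are not compared between genes because the values are not given per length. The table holds no counts, so depth is unknown and how precise a value is can be seen only in how far libraries of a group lie apart. Library profiles correlated at 0.971 to 0.988 within groups, except for the 2 parental OV-90 libraries at 0.952. The epithelial markers EPCAM, KRT8 and KRT18 had parental means from 6.47 to 12.3 in the 4 lines, while KRT19 was at 5.63 in parental OVSAHO and CDH1 at 4.65 in parental EFO-21 and 4.62 in parental Kuramochi. In resistant EFO-21 the mean of CDH1 was 6.03, against 10.6 for KRT18 (11.4 in parental) and 11.5 for KRT19 (12.2 in parental). EPCAM had means of 6.47 in parental and 2.69 in resistant Kuramochi. Of the Mullerian markers PAX8, WT1 and MUC16, PAX8 was at 2.10 in parental OV-90. WT1 was at the bottom of the range, the lowest 10% of a library, in both EFO-21 groups. The other Mullerian markers were not, with PAX8 at 8.44 in parental and 8.64 in resistant EFO-21 and MUC16 at 5.66 and 6.05. EFO-21 also had the endothelial markers PECAM1 and CDH5 at mean values of 8.48 and 9.11 in parental and 8.55 and 9.33 in resistant cells. In such bulk libraries, more cells with a transcript and more transcript per cell cannot be told apart.

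In EFO-21, 44 of the 46 genes had a higher mean in resistant cells, and in 40 every resistant library lay above every parental one, while in 0 every resistant library lay below. Over all genes of the table, 50.8% had a higher mean, 30.4% lay wholly above and 29.3% wholly below. The median difference was 0.64 on the log2 scale, against 0.01 over all genes of the table. Each resistant library showed it, since the median over the 46 genes, measured from the parental mean, was 0.75, 0.60 and 0.60 in resistant libraries 22, 23 and 24 and between -0.07 and 0.04 in the parental libraries. A difference of at least 1.5-fold without overlap of the groups was seen for 25 genes (54.3%), a criterion that 14.1% of all genes in the table met in the same direction, and this share only describes how the list was chosen. The list was drawn around the inner stretch from EFO-21 values, so larger differences there were part of that choice. The inner stretch had a median of 0.89, with 15 of 21 genes at 1.5-fold or more. Differences were smaller in the left flank (0.59, 7 of 14) and in the right flank (0.52, 3 of 11).

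**Figure D1:**
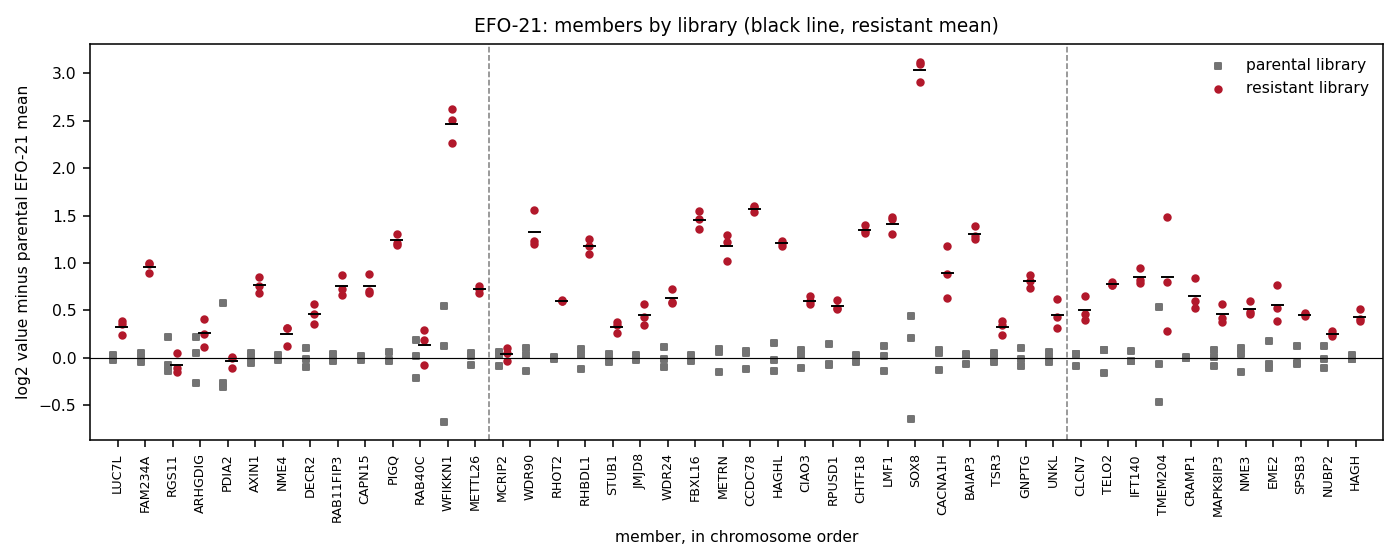
Log2 value of each of the 46 genes in each EFO-21 library minus the parental mean of that gene, in chromosome order from LUC7L to HAGH, with dashed lines at the borders of the inner stretch. Grey squares are the 3 parental libraries, red circles the 3 resistant libraries and black lines the resistant means; 40 genes have every resistant library above every parental one, with SOX8 (3.04) and WFIKKN1 (2.46) farthest up.

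The widest differences in EFO-21 were those of SOX8 and WFIKKN1. SOX8, which acts in the neural crest, glia and gonads, had log2 values of 4.28, 4.04 and 3.19 in parental libraries and 6.93, 6.74 and 6.96 in resistant ones, a difference of 3.04 or 8.22-fold. The groups did not overlap, and parental library 12 was the lowest. WFIKKN1, a secreted protein with protease inhibitor domains that binds growth factors of the TGF-beta family, was at 4.87, 6.09 and 5.67 in parental and 8.05, 8.17 and 7.80 in resistant libraries, a difference of 2.46. Both values rest on few exons, 5 for SOX8 and 3 for WFIKKN1.

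The group of CHTF18, EME2, TELO2, CIAO3, NUBP2 and WDR90 acts in genome maintenance, in iron-sulfur cluster assembly or, for WDR90, in centrioles and cilia. All 6 were higher in every resistant than in every parental EFO-21 library, as were 30.4% of all genes. Because EFO-21 values chose the list, this share only describes that choice and not the role of these genes. CHTF18 was at 6.94, 7.01 and 7.01 in parental and 8.39, 8.32 and 8.30 in resistant libraries, a difference of 1.35 with little spread in either group. WDR90 differed by 1.33, from 6.36, 6.52 and 6.60 to 8.05, 7.69 and 7.72. TELO2 differed by 0.78, from 6.94, 7.18 and 7.18 to 7.89, 7.87 and 7.87. The smaller differences were 0.60 for CIAO3, which delivers iron-sulfur clusters to cytosolic and nuclear proteins, 0.56 for EME2, a partner of the nuclease MUS81, and 0.25 for NUBP2, an iron-sulfur scaffold ATPase.

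Genes of membrane traffic, cilia and organelles were similar, with 7 of 9 at 1.5-fold or more without overlap, against 14.1% of all genes. This share, too, only describes how the list was chosen. CCDC78, which acts in centriole amplification, was at 4.36, 4.52 and 4.54 in parental and 6.06, 6.01 and 6.08 in resistant libraries, a difference of 1.57. LMF1, needed in the endoplasmic reticulum for the maturation of lipases, went from 5.41, 5.67 and 5.57 to 7.03, 7.01 and 6.85, a difference of 1.41. PIGQ, an enzyme subunit of the first step of GPI anchor synthesis, went from 6.73, 6.82 and 6.73 to 8.07, 7.96 and 7.98, a difference of 1.24. All 3 had parental and resistant values more than 1 log2 unit apart. The others were IFT140 (0.85), a subunit of the retrograde ciliary transport complex, GNPTG (0.81), a subunit of the enzyme that tags lysosomal proteins, RAB11FIP3 (0.75), an effector of RAB11, RHOT2 (0.60), a mitochondrial transport GTPase, and CLCN7 (0.50), a lysosomal chloride-proton exchanger. RAB40C, at 5.13, 5.36 and 5.53 against 5.63, 5.53 and 5.26, overlapped between the groups.

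Of the signalling genes, 5 of 9 were higher by at least 1.5-fold without overlap, against 14.1% of all genes. That share again only describes how the list was chosen. BAIAP3, a C2-domain protein of dense-core vesicle traffic, had the widest difference at 1.31, from 4.39, 4.49 and 4.49 to 5.85, 5.74 and 5.71. AXIN1 was at 7.01, 7.12 and 7.08 in parental and 7.93, 7.75 and 7.83 in resistant libraries, a difference of 0.77. FAM234A, a membrane protein, differed by 0.96, CACNA1H, a T-type calcium channel subunit, by 0.89, WDR24, a subunit of the GATOR2 complex that acts on mTORC1, by 0.63, and MAPK8IP3, a JNK scaffold in axonal transport, by 0.46. Here lay 3 of the 6 genes whose groups overlapped. RGS11, a regulator of G protein signalling, was at 4.80, 5.17 and 4.87 against 4.997, 4.79 and 4.84, ARHGDIG was at 4.17, 4.66 and 4.49 against 4.70, 4.86 and 4.56, and TMEM204, measured from 1 exon, was at 3.31, 2.91 and 3.91 against 4.17, 3.66 and 4.86.

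In protein folding and degradation, FBXL16, an F-box protein, differed most in EFO-21, from 5.93, 5.95 and 5.89 to 7.47, 7.28 and 7.38, a difference of 1.45. RHBDL1, a rhomboid family protease, differed by 1.18 and CAPN15, a calpain family protease, by 0.76. STUB1 was at 9.57, 9.63 and 9.65 in parental and 9.96, 9.99 and 9.88 in resistant libraries, so that its difference of 0.33 was small but the groups did not overlap. PDIA2, a disulfide isomerase of the pancreas, was at 1.87, 1.91 and 2.76 against 2.19, 2.07 and 2.19 and overlapped. Of the metabolic genes, HAGHL differed by 1.21, while HAGH, the glyoxalase that releases lactate from its glutathione ester, differed by 0.43, DECR2, a peroxisomal enzyme of fatty acid oxidation, by 0.46, and the nucleoside diphosphate kinases NME3 and NME4 by 0.52 and 0.25.

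METRN, a secreted neurotrophic factor, was at 7.62, 7.87 and 7.84 in parental and 9.07, 8.996 and 8.80 in resistant EFO-21, a difference of 1.18. METTL26 differed by 0.72 and JMJD8 by 0.45. Of the genes of RNA and transcription other than SOX8, the splicing factor LUC7L, the pseudouridine synthase family member RPUSD1 and the ribosome biogenesis factor TSR3 differed by 0.33, 0.55 and 0.32, and CRAMP1 by 0.66, all without overlap. MCRIP2 was at 7.36, 7.52 and 7.48 in parental and 7.50, 7.55 and 7.42 in resistant libraries, a difference of 0.04 between neighbours, METTL26 and WDR90, that differed by 0.72 and 1.33. The smallest difference that met the 1.5-fold criterion was that of RHOT2 (0.60, or 1.51-fold), and the largest that did not, among genes without overlap, was that of EME2 (0.56, or 1.47-fold).

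Neighbouring genes outside the list were also examined, since 21 other measured genes lie between LUC7L and HAGH. Their median difference in EFO-21 was 0.62. Of the 21, 9 were at least 1.5-fold higher without overlap (42.9%, against 14.1% of all genes). Another 3 were at least 1.5-fold lower without overlap (14.3%, against 13.7% of all genes). These genes lie in the span chosen on EFO-21 values, and some overlap listed genes on the chromosome. Their shares are therefore not independent of that choice. Within the inner stretch, MSLN, which encodes the ovarian cancer surface antigen mesothelin, was at 7.004, 7.20 and 7.24 in parental and 9.28, 9.22 and 9.23 in resistant libraries, a difference of 2.10. The microRNA gene MIR662, just beyond MSLN, differed by 2.58 and the antisense gene SSTR5-AS1 by 0.70. The somatostatin receptor gene SSTR5 differed by 1.15, the G protein subunit gene GNG13 by 1.14 and ANTKMT by 0.62. In the same stretch the tryptase gene TPSG1 was lower by 1.04, from 4.99, 4.73 and 5.12 to 4.39, 3.42 and 3.90. The nearest measured genes outside the list were HBQ1 on the left, lower by 0.41, and FAHD1 on the right, with a difference of 0.07.

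The higher values did not end at HAGH. With genes placed by their midpoint, the median difference in EFO-21 was 0.00 over the 11 genes before LUC7L. These were mixed, with 5 higher and 2 lower without overlap, against 30.4% and 29.3% of all genes. Their differences ran from -1.45 to 0.66. The median was 0.57 over the 20 genes from LUC7L to METTL26, 0.89 over the 29 from MCRIP2 to UNKL and 0.49 over the 18 after UNKL to HAGH. It was still 0.49 over the 56 genes from there to 3 Mb and 0.50 over the 57 genes from 3 to 5 Mb. It then went down to 0.37 (12 genes, 5 to 10 Mb), 0.28 (71 genes, 10 to 20 Mb) and 0.24 (192 genes, 20 Mb to the centromere), and it was 0.08 over 353 genes of the long arm. Of these stretches the inner one, around which the list was drawn from EFO-21 values, had the highest median. From 3 to 5 Mb, 25 of 57 genes (43.9%, against 14.1% of all genes) were also at least 1.5-fold higher without overlap. In the other lines the medians of the same stretches lay between -0.46 and 0.23.

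**Figure D2:**
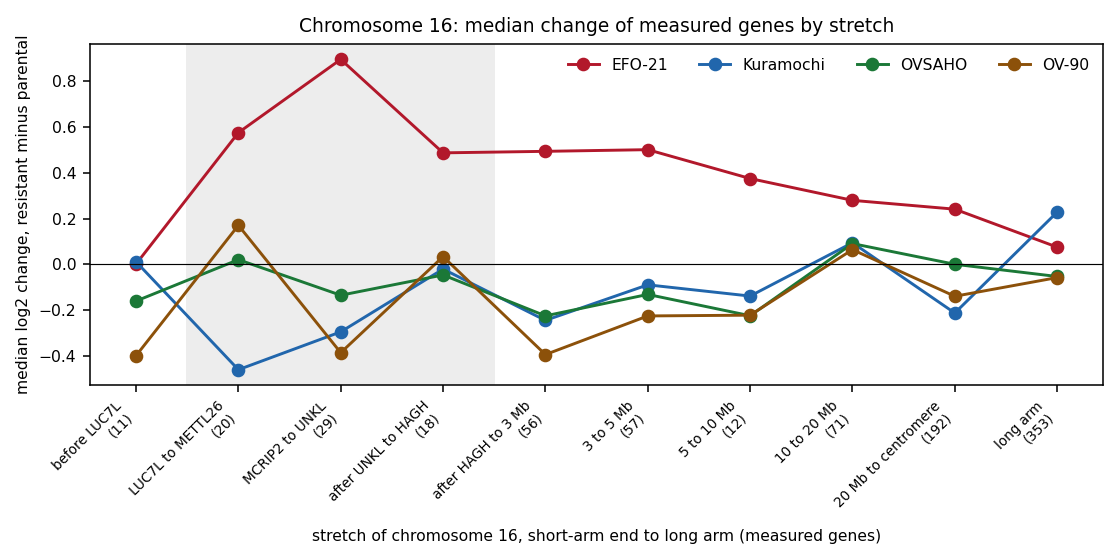
Median log2 difference, resistant minus parental, of all measured genes in 10 stretches of chromosome 16, from the end of the short arm to the long arm, with the number of genes in brackets and the listed region shaded. Red is EFO-21, at 0.89 between MCRIP2 and UNKL, the stretch around which the list was drawn, and above 0.2 from there to the centromere. Blue, green and brown are Kuramochi, OVSAHO and OV-90.

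Parental EFO-21 stood near the share of all genes for low values. It had the lowest mean of the 4 parental lines for 13 of the 46 (28.3%), against 27.6% of all genes. For high values it stood below that share, with the highest mean for 7 of the 46 (15.2%), against 23.9% of all genes. Resistant EFO-21 was above all 3 other parental lines for 21 of the 46 (45.7%), against 26.0% of all genes. The median distance of the EFO-21 mean from the median of the other parental lines was -0.08 in parental and 0.58 in resistant cells. Because the genes were chosen on EFO-21 values, these shares and distances only describe that choice.

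The genes are rich in GC, which moved with the results in several lines and is given here with them. The longest transcript had a median GC content of 64.4% over the 46 genes and 48.6% over the 19409 genes with a transcript, and 35 of the 46 belonged to the GC-richest decile of all genes. In EFO-21 the median difference of that decile was 0.17, against -0.05 in the lowest decile. In OV-90 the medians of the highest and the lowest decile were -0.29 and 0.40, in OVSAHO -0.09 and 0.13, and in Kuramochi -0.01 and -0.09. Measured from the median of their own GC decile, a calculation added after the data were seen, the 46 genes had a median of 0.50 in EFO-21. There, 42 of 46 lay above their decile and 19 were at 1.5-fold or more without overlap. Because EFO-21 values chose the list, these EFO-21 values only describe that choice. Measured in the same way, the medians were -0.20 in Kuramochi, 0.00 in OVSAHO and -0.08 in OV-90. The part of GC content in the single-gene results was not tested.

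**Figure D3:**
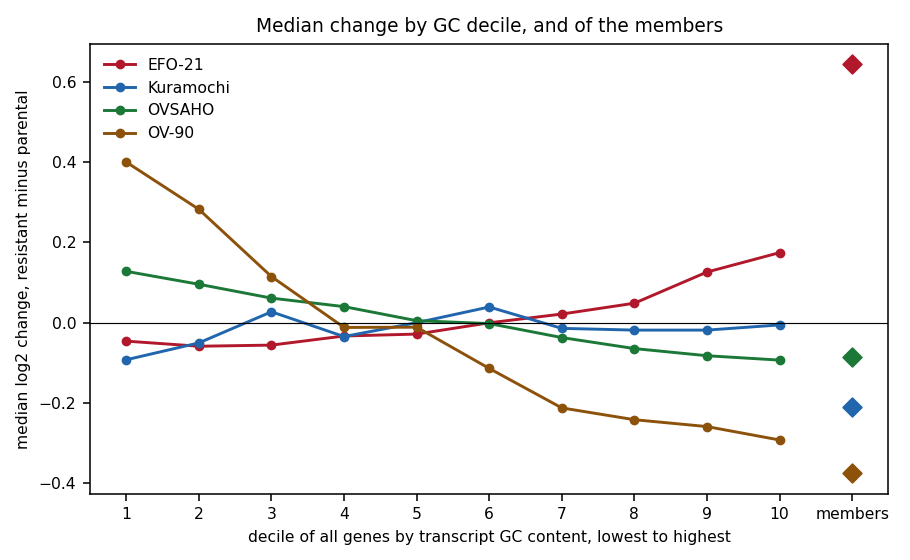
Median log2 difference, resistant minus parental, in each decile of all genes ranked by the GC content of the longest transcript (lines), and the median of the 46 genes (diamonds at the right), for the 4 lines in the same colours. In EFO-21, whose values chose the members, they lie at 0.64 and the highest GC decile at 0.17. In OV-90 the members lie at -0.38 and that decile at -0.29.

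The question in the other 3 lines was whether the same genes changed there. For each line a separate limma fit was made, with two-sided p-values and the Benjamini-Hochberg adjustment over the whole table of 21658 genes. A call needed both an adjusted p under 0.05 and 2-fold or more between the group means. The median difference of the 46 genes was -0.21 in Kuramochi, -0.08 in OVSAHO and -0.38 in OV-90, against -0.02, 0.00 and -0.06 over all genes. In none of the 3 was the median above 0. With 3 libraries against 3, or 2 against 3, no gene taken singly can reach a two-sided exact permutation p below 0.1, and the limma p-values measure only the spread between these libraries, which the labels call biological replicates.

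In Kuramochi, 4 of the 46 genes rose (8.70%, where 11.8% of all genes rose) and 1 fell (2.17%, against 10.6%). Neither share was above that of all genes. At an adjusted p under 0.05 without a minimum fold, 7 rose (15.2%, against 23.6%) and 15 fell (32.6%, against 23.3%). The 4 that rose were FBXL16 and the 3 adjacent genes RGS11, ARHGDIG and PDIA2, and these 3 were among the genes whose groups overlapped in EFO-21.

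FBXL16 was at 1.73, 2.47 and 2.48 in parental and 4.56, 4.56 and 4.67 in resistant Kuramochi, a rise of 2.37 (95% interval 1.74 to 3.00, limma adjusted p = 0.000664). PDIA2 went from 2.40, 1.496 and 3.49 to 4.30, 4.34 and 4.64, a rise of 1.96 (0.76 to 3.17, limma adjusted p = 0.019), and the parental libraries were widely spread. ARHGDIG rose by 1.20, from 4.93, 5.47 and 5.87 to 6.57, 6.48 and 6.82 (limma adjusted p = 0.00893). RGS11 rose by 1.11, from 2.60, 2.74 and 3.08 to 3.88, 3.77 and 4.11 (limma adjusted p = 0.00696). In all 4 the groups did not overlap.

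The gene that fell in Kuramochi was SOX8, the gene with the widest difference in EFO-21. It was at 5.88, 5.86 and 5.97 in parental and 5.32, 4.61 and 4.71 in resistant libraries, a fall of 1.03 on the log2 scale (limma adjusted p = 0.00895). Genes past the adjusted p alone included WFIKKN1 (-0.85, limma adjusted p = 0.0144), MCRIP2 (-0.81, 0.0262), RAB40C (-0.80, 0.00344), IFT140 (-0.76, 0.000992), CAPN15 (-0.72, 0.00107) and BAIAP3 (-0.67, 0.0152), all lower. On the higher side NME3 was at 0.76 (limma adjusted p = 0.046), CACNA1H at 0.48 (0.0212) and CLCN7 at 0.40 (0.00336). Without resistant library 16, 17 or 18 in turn the PDIA2 rise had limma adjusted p = 0.0532, 0.0524 and 0.0599, without parental library 4 the ARHGDIG change was 0.95, and without library 6, 17 or 18 the SOX8 fall was 0.99, 0.89 and 0.94, under 2-fold.

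In OVSAHO, 1 gene rose (2.17%, against 3.93% of all genes) and 0 fell (against 3.83%). Without a minimum fold 5 rose (10.9%, against 17.1%) and 6 fell (13.0%, against 16.2%). The gene that rose was CACNA1H, at 1.54, 1.41 and 1.44 in parental and 2.80, 2.43 and 2.65 in resistant libraries, a difference of 1.16 (95% interval 0.76 to 1.56, limma adjusted p = 0.00393). All its parental values lay in the lowest decile of the range, so this difference is not a measured fold change. BAIAP3 followed at 0.83 (limma adjusted p = 0.0097), from 2.17, 2.39 and 2.32 to 3.08, 3.22 and 3.07, then WDR90 at 0.37 (0.00677), TELO2 at 0.23 (0.0269) and RAB11FIP3 at 0.18 (0.0275). The lower genes were RPUSD1 (-0.51, limma adjusted p = 0.00103), MCRIP2 (-0.45, 0.0114), CIAO3 (-0.43, 0.0326), HAGHL (-0.36, 0.0367), HAGH (-0.28, 0.0355) and JMJD8 (-0.26, 0.0296).

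Intervals in OVSAHO were narrow, with a median half-width of 0.23 over the 46 genes. SOX8 differed by 0.55 there (95% interval -0.11 to 1.22, limma adjusted p = 0.172) and WFIKKN1 by 0.08 (-0.45 to 0.60, 0.827). For CHTF18 the difference was -0.13 (-0.29 to 0.02), for LMF1 -0.13 (-0.36 to 0.11) and for PIGQ 0.03 (-0.24 to 0.30). Without parental library 9, 2 members were called higher in OVSAHO in place of 1.

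In OV-90, 1 gene rose (2.17%, against 9.5% of all genes) and 4 fell (8.70%, against 6.56%). Without a minimum fold 3 rose (6.52%, against 18.1%) and 14 fell (30.4%, against 17.9%). Among the 3569 genes of the top 2 GC deciles outside chromosome 16, 10.1% rose and 23.8% fell without a minimum fold. At 2-fold or more, 4.51% of those genes rose and 8.66% fell. PDIA2 rose by 1.36, from 1.81 and 1.22 to 2.93, 3.15 and 2.54 (limma adjusted p = 0.0313), with both parental values in the lowest decile of the range. NME3 fell by 1.56, from 5.38 and 4.73 to 3.77, 3.19 and 3.52 (limma adjusted p = 0.0263). METTL26 went from 9.02 and 8.12 to 7.36, 7.60 and 7.26, a fall of 1.16 (limma adjusted p = 0.0397), and LMF1 from 4.58 and 4.10 to 3.04, 3.22 and 3.28, also a fall of 1.16 (limma adjusted p = 0.0278). METRN went from 8.24 and 7.48 to 6.66, 7.09 and 6.45, a fall of 1.13 (limma adjusted p = 0.0458).

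In all 4 genes that fell, the groups did not overlap but parental library 2 lay well above parental library 3. These 4 calls rested on parental library 2 and on each resistant library. Without library 2, 13, 14 or 15 in turn, 0 members were called lower, and without library 3 it was 8. The median over the 46 genes was -0.18 without library 2 and -0.53 without library 3. A fit without library 2 or 3 leaves 1 parental library, which is then assumed to vary like the resistant ones. The PDIA2 rise was not called without library 3 (limma adjusted p = 0.0564), 13 (0.105), 14 (0.0907) or 15 (0.0869). Without the mean-variance trend METTL26 (limma adjusted p = 0.0515) and METRN (0.0575) missed the threshold. Another 10 genes were lower past the adjusted p alone in OV-90, namely WDR24 (-0.73, limma adjusted p = 0.0471), GNPTG (-0.67, 0.0254), STUB1 (-0.66, 0.0327), TSR3 (-0.64, 0.0422), LUC7L (-0.59, 0.0266), JMJD8 (-0.55, 0.0187), CIAO3 (-0.52, 0.0302), SPSB3 (-0.48, 0.0287), RPUSD1 (-0.47, 0.0246) and TELO2 (-0.37, 0.0315). On the higher side were UNKL (0.56, limma adjusted p = 0.0374) and CLCN7 (0.51, 0.0253).

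**Figure D4:**
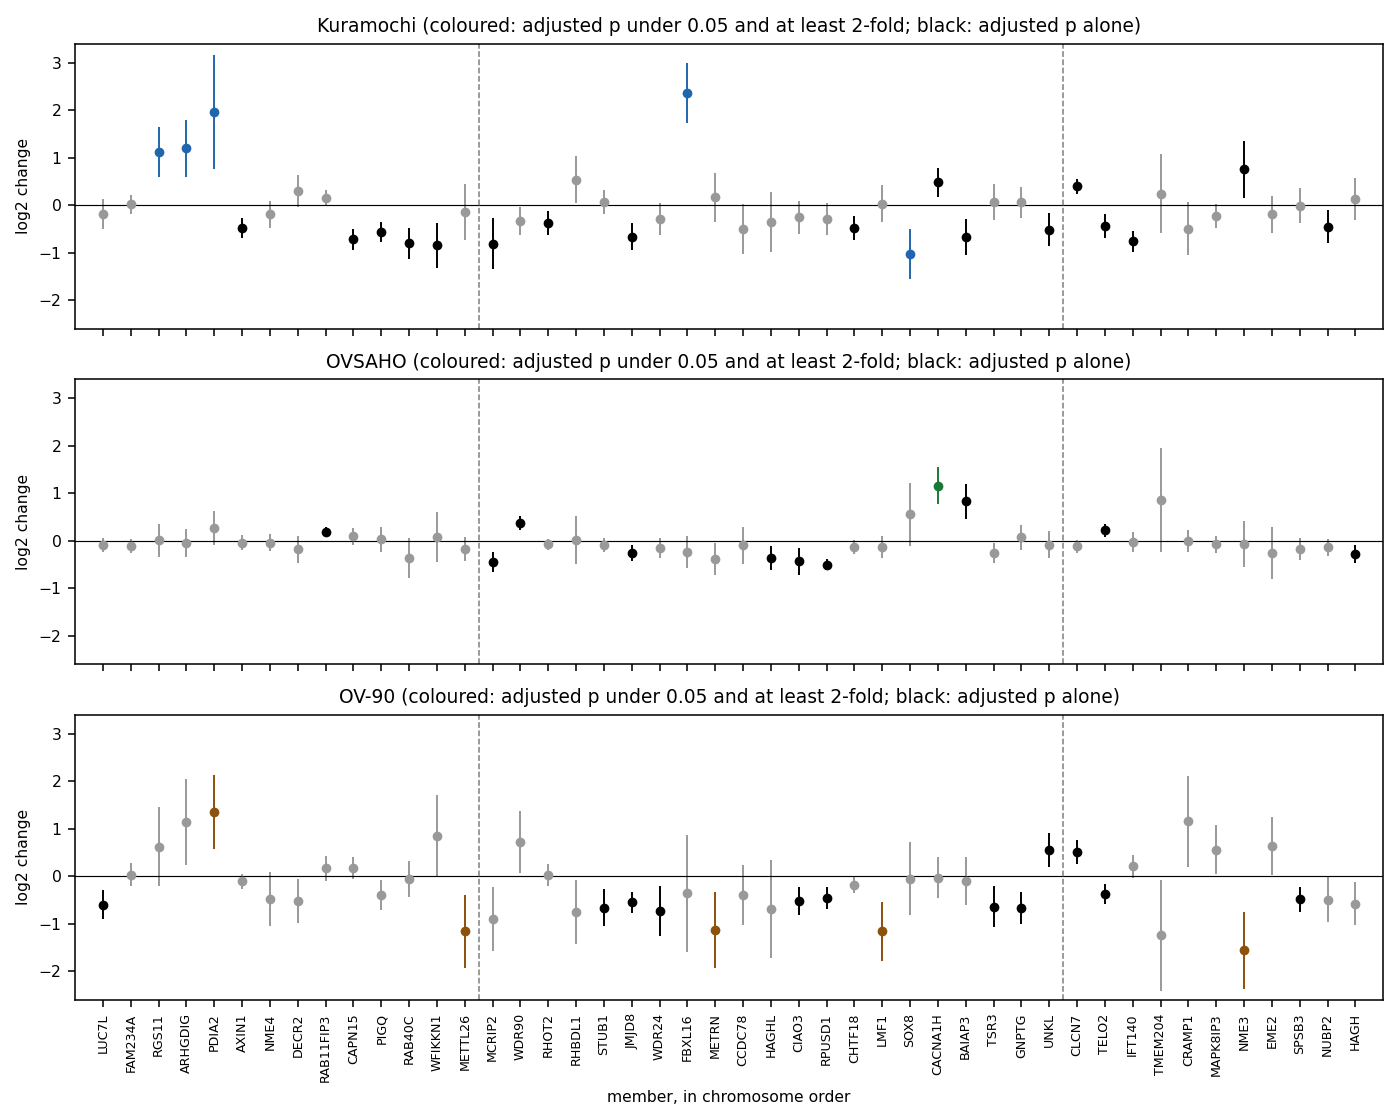
Log2 difference, resistant minus parental, of each of the 46 genes in Kuramochi, OVSAHO and OV-90 in chromosome order, with limma 95% intervals as bars and dashed lines at the borders of the inner stretch. Coloured points passed an adjusted p under 0.05 and 2-fold (4 higher and 1 lower in Kuramochi, 1 higher in OVSAHO, 1 higher and 4 lower in OV-90), black points the adjusted p alone and grey points neither.

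Across the 3 tested lines, 1 gene, JMJD8, which acts in the endoplasmic reticulum, was past the adjusted p in the same direction in all, at -0.66 in Kuramochi, -0.26 in OVSAHO and -0.55 in OV-90, while it was 0.45 higher in resistant EFO-21. Lower in at least 2 of the 3 were JMJD8, MCRIP2, CIAO3, RPUSD1 and TELO2. Higher in at least 2 were PDIA2, CACNA1H and CLCN7. BAIAP3, UNKL, TELO2 and NME3 were past the adjusted p in opposite directions in different lines, and 9 of the 46 were past it in none. By adjusted p alone, 23.3%, 16.2% and 17.9% of all genes were lower in Kuramochi, OVSAHO and OV-90. Higher were 23.6%, 17.1% and 18.1%. How many of all genes fell into these classes across lines was not counted, so the counts only describe the 46.

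The difference between lines was tested itself, in a limma fit of the 17 libraries of the 3 lines. The change of 17 of the 46 genes (37%, against 42.8% of all genes) differed between Kuramochi and OVSAHO at an adjusted p under 0.05. It was 26 (56.5%, against 53.5%) between Kuramochi and OV-90 and 17 (37%, against 31.8%) between OVSAHO and OV-90. These shares are close to those of the table, and without parental OV-90 library 2 the last 2 counts were 16 and 7. The FBXL16 change was 2.61 higher in Kuramochi than in OVSAHO (95% interval 1.70 to 3.52, limma adjusted p = 0.000202). Its size is uncertain, because a parental Kuramochi value of FBXL16 lay near the lowest decile. The NME3 change was 2.32 higher in Kuramochi than in OV-90 (1.51 to 3.13, limma adjusted p = 0.000167). SOX8 differed by -1.58 between Kuramochi and OVSAHO (-2.39 to -0.78, limma adjusted p = 0.00355), and BAIAP3 by -1.499 (-1.95 to -1.05, limma adjusted p = 5.26e-05).

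**Figure D5:**
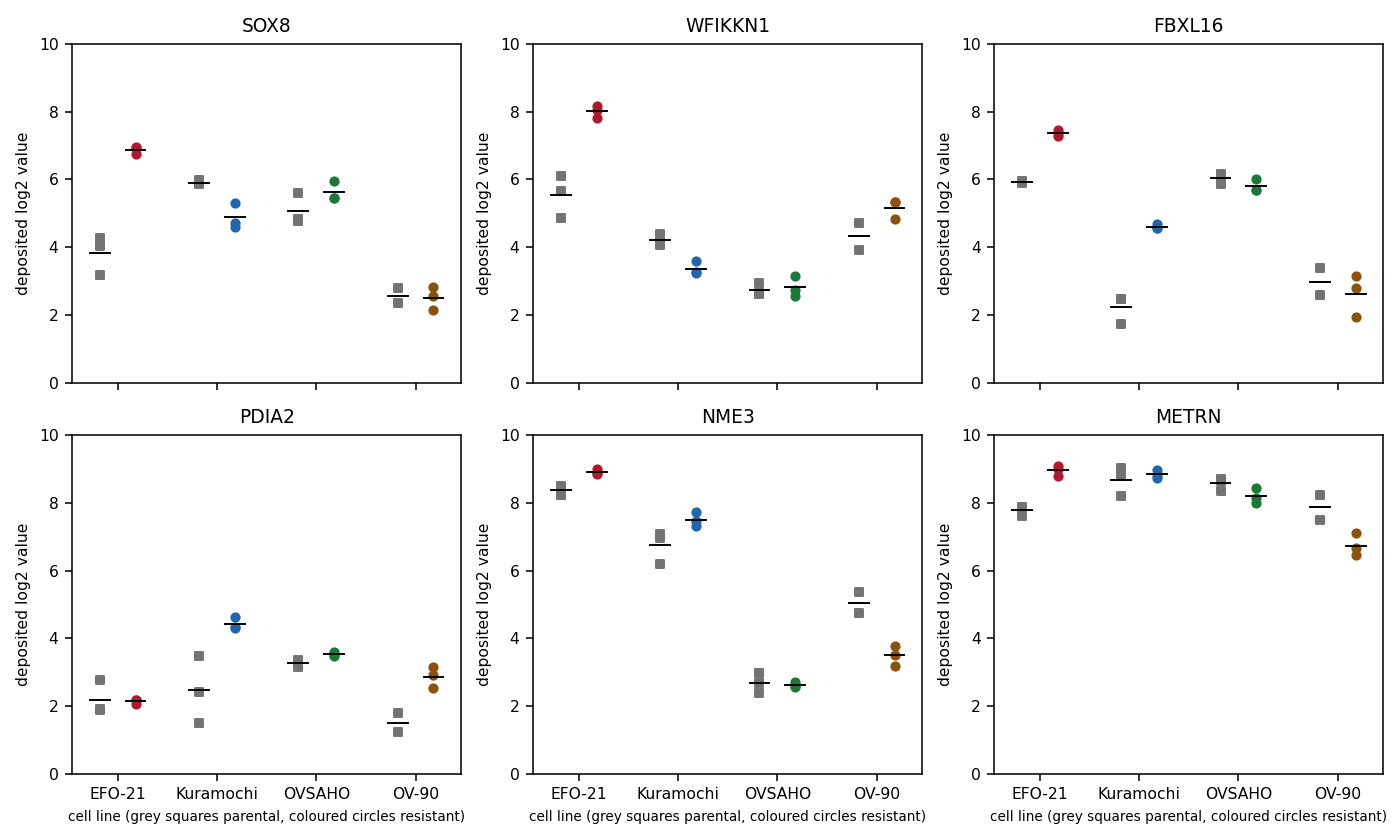
Deposited log2 values of SOX8, WFIKKN1, FBXL16, PDIA2, NME3 and METRN in every library of the 4 lines, on an axis from 0 to 10, with black lines at group means. Grey squares are parental and coloured circles resistant libraries; SOX8 is 3.04 higher in resistant EFO-21 and 1.03 lower in resistant Kuramochi, and FBXL16 is higher in both by 1.45 and 2.37.

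By role, the group of CHTF18, EME2, TELO2, CIAO3, NUBP2 and WDR90 had medians of -0.39 in Kuramochi, -0.14 in OVSAHO and -0.27 in OV-90, with 0 of 6 called at 2-fold in any of the 3. In EFO-21 the same 6 had a median of 0.69. The 9 genes of traffic, cilia and organelles had medians of 0.81 in EFO-21 and of -0.36, -0.08 and -0.05 in Kuramochi, OVSAHO and OV-90, and LMF1 in OV-90 was the only one called at 2-fold in those 3 lines. The 9 signalling genes had medians of 0.77 in EFO-21 and 0.02, -0.04 and -0.03 in the others, with 2 called higher in Kuramochi and 1 in OVSAHO. The 5 metabolic genes had medians of 0.46, 0.14, -0.18 and -0.57, the 6 genes of RNA and transcription 0.44, -0.39, -0.17 and -0.53, the 7 of protein folding and degradation 0.46, 0.06, -0.08 and -0.36, and the 4 other genes 0.95, -0.41, -0.22 and -0.84, each in the order EFO-21, Kuramochi, OVSAHO and OV-90.

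Overlap of genes on the chromosome limits some of these values. Of the 46 genes, 29 overlap another measured gene and 23 of them one on the opposite strand, and although the library kit keeps the strand, whether the counting used it is not given in the sources used here. FAM234A and RGS11 overlap by 3883 bases on opposite strands, yet differed in EFO-21 by 0.96 and -0.07. HAGHL and CIAO3 overlap by 5766 bases and differed by 1.21 and 0.60. IFT140 contains TMEM204 over 26893 bases.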

How the data were processed

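The labels and the study's methods describe stranded mRNA libraries of 23 samples, aligned by the authors to GRCh37/hg19, with exon and junction reads summarised per gene and quantile normalized. The deposited values are log2 expression per gene, from a robust linear model for 16448 genes (44 of the 46) and from a mean of log2 exon values for 5210. The table also holds a count of exons per gene, printed for some genes, and deposited exon weights, each a fraction, which were not used. No column belonged to other samples (0 columns). Gene IDs were matched to RefSeq symbols (20745 of 21658) and to GENCODE positions on GRCh37 (19409). Lines were fitted singly in limma 3.58.1 (R 4.3.3; lmFit and eBayes with trend), without filter or pseudocount, and the fit was tested on simulated data. The bottom of the range is the lowest 10% of a library. All 46 genes could be named, and of other genes those of the inner stretch and those next to the list; the gene list, its role groups and the comparisons were chosen with earlier results of these data known. Alternatives were one fit of all libraries, no trend, a filter at the 25th percentile, recentred libraries, other fold limits, robust linear model genes only, and leaving out each library.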

Additional observations from a re-analysis of the deposited data

Results flagged for a closer look

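Differences of the resistant-minus-parental change between 2 of the 3 tested lines drew attention where limma's test of the difference itself passed an adjusted p of 0.05. This held for 17 genes between Kuramochi and OVSAHO, 26 between Kuramochi and OV-90 and 17 between OVSAHO and OV-90. Differences of at least 1 on the log2 scale are listed with the first line minus the second.

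For Kuramochi minus OVSAHO they were 2.61 for FBXL16, 1.69 for PDIA2, 1.25 for ARHGDIG, 1.10 for RGS11, -1.58 for SOX8 and -1.499 for BAIAP3. For Kuramochi minus OV-90 they were 2.73 for FBXL16, 2.32 for NME3, 1.30 for RHBDL1, 1.29 for METRN, 1.19 for LMF1, 1.01 for METTL26, -1.69 for WFIKKN1, -1.66 for CRAMP1, -1.07 for UNKL and -1.05 for WDR90. For OVSAHO minus OV-90 they were 2.10 for TMEM204, 1.497 for NME3, 1.19 for CACNA1H, 1.03 for LMF1, -1.19 for ARHGDIG and -1.17 for CRAMP1. The value of CACNA1H rests on values at the bottom of the range in parental OVSAHO and in both OV-90 groups. That of RGS11 rests on values at the bottom in both OVSAHO groups, and that of TMEM204 on 1 exon.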

How the results depend on the processing

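Limits. The values are relative after quantile normalization, without counts, so depth and counting error are unknown. The number of derivations behind each resistant line is not given in the sources used here. EFO-21 chose the list and carries no test.

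For genes above the 25th percentile, the counts of genes higher were 2 in Kuramochi, 0 in OVSAHO and 2 in OV-90. At 1.5-fold, 8 were lower in Kuramochi, 2 higher in OVSAHO and 9 lower in OV-90. By adjusted p alone, 7 were higher and 15 lower in Kuramochi, 5 and 6 in OVSAHO, and 3 and 14 in OV-90. One fit of 23 libraries and robust linear model genes alone each gave 3 higher in OV-90, and no mean-variance trend gave 2 lower there. In EFO-21, 12 genes were at 2-fold without overlap and 40 with no minimum fold, against 1623 and 6592 of all 21658 genes. Relative to their GC decile, chosen after the data were seen, the medians were 0.50 in EFO-21, 0.003 in OVSAHO, where the sign turned from -0.08, and -0.083 in OV-90. Apart from the genes removed by the filter and the fewer genes in a filtered fit, the cause of these changes was not tested.

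Leaving out 1 library gave 3 to 4 higher and 0 to 2 lower in Kuramochi, 1 to 2 higher and 0 to 0 lower in OVSAHO, and 0 to 2 higher and 0 to 8 lower in OV-90. PDIA2 in OV-90 lost its call without library 3, 13, 14 or 15. Medians ran from 0.60 to 0.67 in EFO-21, -0.30 to -0.14 in Kuramochi, -0.12 to -0.05 in OVSAHO and -0.53 to -0.18 in OV-90, and the EFO-21 count from 24 to 28. Genes that differed between lines numbered 13 to 20 (Kuramochi and OVSAHO), 16 to 28 (Kuramochi and OV-90) and 7 to 25 (OVSAHO and OV-90), the lowest of the last 2 without library 2. No paired analysis was possible because the columns carry no replicate number.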
